A study of Mus musculus with 10 samples.

Results

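Endoplasmic reticulum (ER)-associated degradation returns misfolded proteins from the ER to the cytosol, where the proteasome destroys them. Lectins and mannosidases in the ER lumen mark and deliver a client, a membrane complex built around the ubiquitin ligase HRD1 moves it across the membrane and tags it, and the ATPase p97 pulls it out. Many of its genes are targets of the unfolded protein response, which cells with a heavy secretory load use to raise folding and disposal capacity together.

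The 9 genes described here are the core factors HERPUD1, SYVN1, SEL1L, EDEM1, EDEM2, DERL1, DERL2, DERL3 and OS9, taken by gene symbol from the authors' deposited table of 35395 identifiers. All 9 were listed in each of its 4 comparisons, and 8 had an adjusted p there. Per the labels, the study sequenced epididymal white fat of male C57BL/6 mice in 4 groups. Ad-IGF2 (2 samples) is an adenovirus that carries IGF2 under a CMV promoter, and Ad-GFP (3 samples) is its control. Both were injected into the fat pads of mice made obese by a high-fat diet (8 weeks per the labels), 2 times a week for 4 weeks. IGF2-RNAi (2 samples) is a lentiviral hairpin against IGF2 driven by the hU6 promoter, and NC-RNAi (3 samples) is its control. Both were given by tail vein to mice aged 3 to 4 weeks. The viruses carry EGFP, and neither promoter is restricted to fat cells.

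The table does not name its comparisons and its identifiers are human, so none of the 4 comparisons could be tied to these groups. No result below can therefore be attributed to IGF2. The base means of 26748 of the 26755 genes listed in all 4 comparisons could be split into whole reads, and in this way the reads of 8 unnamed libraries in 4 pairs were recovered. The first comparison sets A against C, the second A against D, the third B against C, and the fourth B against D. The first and the third comparison therefore share their reference libraries, as do the second and the fourth, and each numerator pair is used 2 times. The labels list 10 samples, with each IGF2 virus beside its own control. The 8 libraries in crossed comparisons do not match that layout. The libraries hold 14126843 and 11690009 recovered reads in set B, 27290361 and 15784344 in set A, 20237890 and 16200249 in set C, and 15385817 and 15415085 in set D. The design text speaks of 2 replicate sequencing, so the p-values may measure only technical spread between libraries. The pair in set A was the most uneven: 28.8% of 9999 well-counted genes differed by over 1.5 times between its libraries, against 1.41% in set B, 4.95% in set C and 8.08% in set D.

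Adipocyte markers, which should be abundant in the labelled tissue, were close to absent. Summed over the 9 of 12 adipocyte markers with recovered reads, they came to 12.6 to 16.8 CPM (reads per 1000000) in set B, 2.72 to 6.60 in set A, 1.60 to 2.17 in set C and 2.01 to 2.92 in set D. PLIN4 had the most reads of the 9, at 165 and 94 in set B, 126 and 14 in set A, 28 and 6 in set C, and 9 and 14 in set D. ADIRF had 9 to 31 reads in any library, FABP4 1 to 13 and CFD 0 to 2. No marker of the 9 was at 0 in both libraries of set B or set A. CFD and PCK1 were at 0 in both libraries of set C, and CFD and THRSP in both of set D. Macrophage markers (8 of 12 with recovered reads) summed to 20.9 to 23.7 CPM in set B, 10.3 to 17 in set A, 6.23 to 11.6 in set C and 9.29 to 10.3 in set D. These markers did not move together. CD163 had 125 and 85 reads in set B, against 10 and 2 in set A. It had 6 and 1 in set C, and 2 and 3 in set D. CSF1R, with the most reads of the 8, had 65 and 64, 181 and 94, 120 and 67, and 108 and 113, in that order of sets. Of the 8, MRC1 was at 0 in both libraries of set C and LYZ in both of set D. Markers of plasma and other secretory cells, cells known for high ER throughput (9 of 12 with recovered reads, most of them from SDC1), summed to 137 to 164 CPM in set B, 325 to 427 in set A, 256 to 264 in set C and 454 to 497 in set D. The lower sum in set B follows SDC1, with 1299 and 1424 reads in set B, 7250 and 6329 in set A, 4899 and 3725 in set C, and 6467 and 7056 in set D. FKBP11, with the next most reads, had no such drop: 546 and 445 in set B, 788 and 367 in set A, 408 and 403 in set C, and 468 and 563 in set D. Reads of single markers are not scaled to library totals, which were lowest in set B (14126843 and 11690009). JCHAIN and TNFRSF17 were at 0 in both libraries of set C. The part of these cell type levels in the results below was not tested. In such bulk libraries, fewer cells of a type and less RNA per cell cannot be told apart.

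Promoter windows are printed for 3 of the factors and for the ER chaperone gene Hspa5 because each holds a textbook motif of the unfolded protein response. The windows are 100 bases of the mouse RefSeq promoters (GRCm38.p6) matched by symbol, since the labels give mouse as the organism. No human promoter was used here. Capitals mark the ER stress element ERSE (CCAAT, any 9 bases, CCACG) or ERSE-II (ATTGG, any 1 base, CCACG), as found on either strand in the 250 bases before the start. The windows lie at chr8:94386329-94386428 (Herpud1), chr19:6046476-6046575 (Syvn1), chr10:75893201-75893300 (Derl3) and chr2:34771984-34772083 (Hspa5), all on the plus strand.
Herpud1 (ERSE-II): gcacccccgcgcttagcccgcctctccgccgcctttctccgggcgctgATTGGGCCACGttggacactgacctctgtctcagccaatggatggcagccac
Syvn1 (ERSE): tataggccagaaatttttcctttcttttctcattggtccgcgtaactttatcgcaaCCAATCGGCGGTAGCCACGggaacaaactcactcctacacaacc
Derl3 (ERSE, on the opposite strand): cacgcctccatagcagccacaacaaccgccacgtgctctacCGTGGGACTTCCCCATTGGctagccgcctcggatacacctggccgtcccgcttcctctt
Hspa5 (ERSE): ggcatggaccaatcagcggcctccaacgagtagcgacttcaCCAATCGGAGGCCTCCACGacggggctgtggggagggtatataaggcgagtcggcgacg
ERSE was present in 37 of 32851 mouse promoters (0.113%) and ERSE-II in 10 (0.0304%). Of the 8 factors with a promoter in the table (Derl1 had none), Syvn1 and Derl3 held ERSE and Herpud1 held ERSE-II. The shared core CCACG, which both motifs contain, was in 7 of the 9 promoters of these factors (Derl2 has 2, of which 1 holds it) and in 28.3% of all promoters. Edem2 was the factor with none of the searched motifs, which also included TGACG followed by TGG or TGA. A match is a match of letters in this window and does not show binding.

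HERPUD1, an ER membrane protein that joins the HRD1 complex and is itself short-lived, had the largest log2 fold change of the 8 tested factors in the third and the fourth comparison. Its identifier is ENSG00000051108. It had 10629 and 9778 normalised reads (reads divided by the size factor of the library) in set B, 1038 and 585 in set A, 529.5 and 587 in set C, and 640.2 and 699 in set D. Both libraries of set B stood far above all 6 others, which lay between 529.5 and 1038. The range of set D was above that of set C, without overlap. In the authors' deposited table the log2 fold change of set B over set C was 4.14 ± 0.15 (SE), or 17.7-fold, at an adjusted p of 3.9e-169. Over set D the authors' deposited table gives 3.87 ± 0.17, or 14.6-fold, at an adjusted p of 2.1e-109. For set A the deposited values were 0.52 ± 0.37 over set C (adjusted p = 1.00) and 0.28 ± 0.38 over set D (adjusted p = 0.893). The set A libraries differed from each other by 1.77 times, and their range overlapped those of sets C and D. By limma on the recovered reads, set B exceeded set A by 3.71 ± 0.25 (adjusted p = 0.000136). With any 1 of the 8 libraries left out, this value was 3.31 to 4.15.

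**Figure D1:**
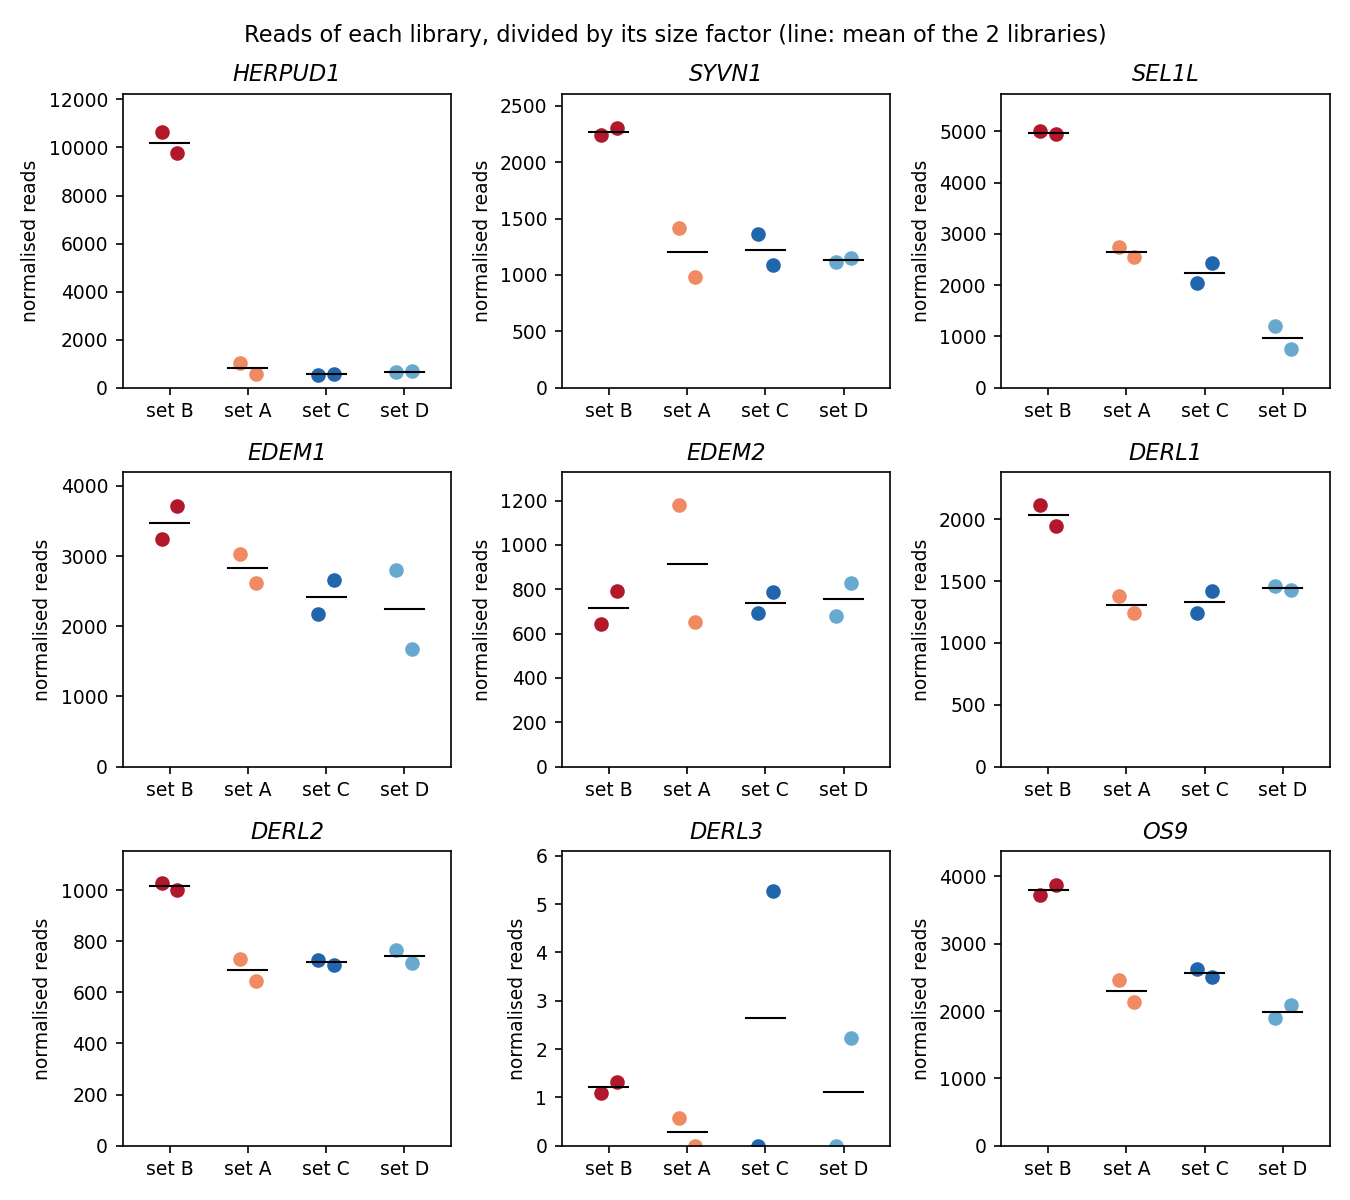
Normalised reads (reads divided by the size factor) of the 9 factors in the 2 libraries of sets B, A, C and D, with a line at each pair's mean; each panel has its own axis from 0. HERPUD1 reached 10629 and 9778 in set B, against at most 1038 in the other sets, SEL1L was lowest in set D at 1197 and 746, and EDEM2 overlapped between all sets.

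SYVN1 encodes HRD1, the membrane-bound ubiquitin ligase at the centre of the pathway. Its identifier is ENSG00000162298. It had 2238 and 2306 normalised reads in set B, 1420 and 980.0 in set A, 1362 and 1087 in set C, and 1113 and 1152 in set D. The pair in set B lay above all 6 others, which overlapped one another. The deposited log2 fold change was 0.84 ± 0.17 for set B over set C (adjusted p = 7.5e-06) and 0.94 ± 0.18 over set D (adjusted p = 1.3e-06). For set A it was -0.05 ± 0.34 over set C and 0.09 ± 0.34 over set D in the authors' deposited table, neither past the threshold.

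SEL1L, the adaptor that stabilises HRD1 and receives clients from the lumen, was the one factor called in the second comparison as well as in the third and the fourth. Its identifier is ENSG00000071537. It had 5006 and 4952 normalised reads in set B, 2748 and 2555 in set A, 2046 and 2439 in set C, and 1197 and 746 in set D. None of the 4 ranges overlapped: set B was highest, then set A, then set C, and set D was lowest. The deposited fold of set B was 1.10 ± 0.15 on the log2 scale over set C (adjusted p = 1.5e-11) and 2.30 ± 0.22 over set D (adjusted p = 9.1e-24). Set A exceeded set D by 1.45 ± 0.35 in the authors' deposited table (adjusted p = 0.00836), against 0.23 ± 0.31 for set A over set C (adjusted p = 1.00). The direct test of set D against set C by limma gave -1.23 ± 0.23 (95% confidence interval -1.75 to -0.71), with an adjusted p of 0.0777 over 18579 genes that misses the threshold of 0.05. The libraries of set D differed by 1.60 times for this gene. The limma value for set A over set D was 1.48 (adjusted p = 0.0408) with all 8 libraries. Without D2 it was 1.14, and without B1, B2, C1, C2 or D1 it was 1.49, 1.48, 1.48, 1.48 and 1.82. The call was lost in each of these fits and held without A1 or A2, at 1.43 and 1.53. The share of all genes called in each such fit is not given.

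EDEM1 and EDEM2 are mannosidase-like proteins that trim and single out misfolded glycoproteins. EDEM1 (ENSG00000134109) had 3245 and 3709 normalised reads in set B, 3033 and 2618 in set A, 2175 and 2654 in set C, and 2805 and 1681 in set D. Set B was above the rest by a small margin, and the libraries of set D differed by 1.67 times. EDEM1 rose in set B in the authors' deposited table, by 0.48 ± 0.16 over set C (adjusted p = 0.0142) and by 0.57 ± 0.23 over set D (adjusted p = 0.0385). Under limma neither passed the threshold (adjusted p = 0.130 and 0.0595). EDEM2 (ENSG00000088298) had 642 and 793 normalised reads in set B, 1179 and 651 in set A, 691 and 787 in set C, and 678 and 829.8 in set D. All 4 ranges of EDEM2 overlapped, and the high library in set A stood 1.81 times above its partner. Its deposited log2 fold change was -0.09 ± 0.20 for set B over set C (95% interval -0.48 to 0.30) and -0.14 ± 0.22 over set D (-0.57 to 0.30). The limma intervals were wider, -0.67 to 0.62 over set C and -0.71 to 0.59 over set D.

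OS9 (ENSG00000135506), a lectin that reads trimmed glycans and hands clients to SEL1L, had 3721 and 3874 normalised reads in set B, 2463 and 2133 in set A, 2626 and 2499 in set C, and 1899 and 2082 in set D. Set B was again apart from the other 6 libraries, and set D was at the low end. The authors' deposited table gives 0.52 ± 0.14 for set B over set C (adjusted p = 0.00174) and 0.87 ± 0.17 over set D (adjusted p = 4.4e-06). For set A it gives -0.17 ± 0.30 over set C and 0.21 ± 0.32 over set D.

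The derlins are rhomboid-like membrane proteins that help clients cross the ER membrane. DERL1 (ENSG00000136986) had 2118 and 1948 normalised reads in set B, 1375 and 1245 in set A, 1244 and 1417 in set C, and 1458 and 1428 in set D. DERL2 (ENSG00000072849) had 1027 and 1002 in set B, 731 and 645 in set A, 727 and 707 in set C, and 764 and 716 in set D. For both genes the lower library of set B was above every library of the other 3 sets. In the authors' deposited table DERL1 rose by 0.56 ± 0.16 over set C (adjusted p = 0.00261) and by 0.43 ± 0.18 over set D (adjusted p = 0.0433). DERL2 rose by 0.45 ± 0.17 over set C (adjusted p = 0.0337), while its deposited 0.39 ± 0.19 over set D did not pass the threshold (adjusted p = 0.104). Limma passed DERL1 over set C (adjusted p = 0.0286) but not over set D (adjusted p = 0.0511), and DERL2 over neither (adjusted p = 0.0599 over set C and 0.0713 over set D). DERL3 (ENSG00000099958), known mainly from secretory tissues, had 1 and 1 reads in set B, 1 and 0 in set A, 0 and 5 in set C, and 0 and 2 in set D. It has no adjusted p in any comparison, and no fold is given for it.

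**Figure D2:**
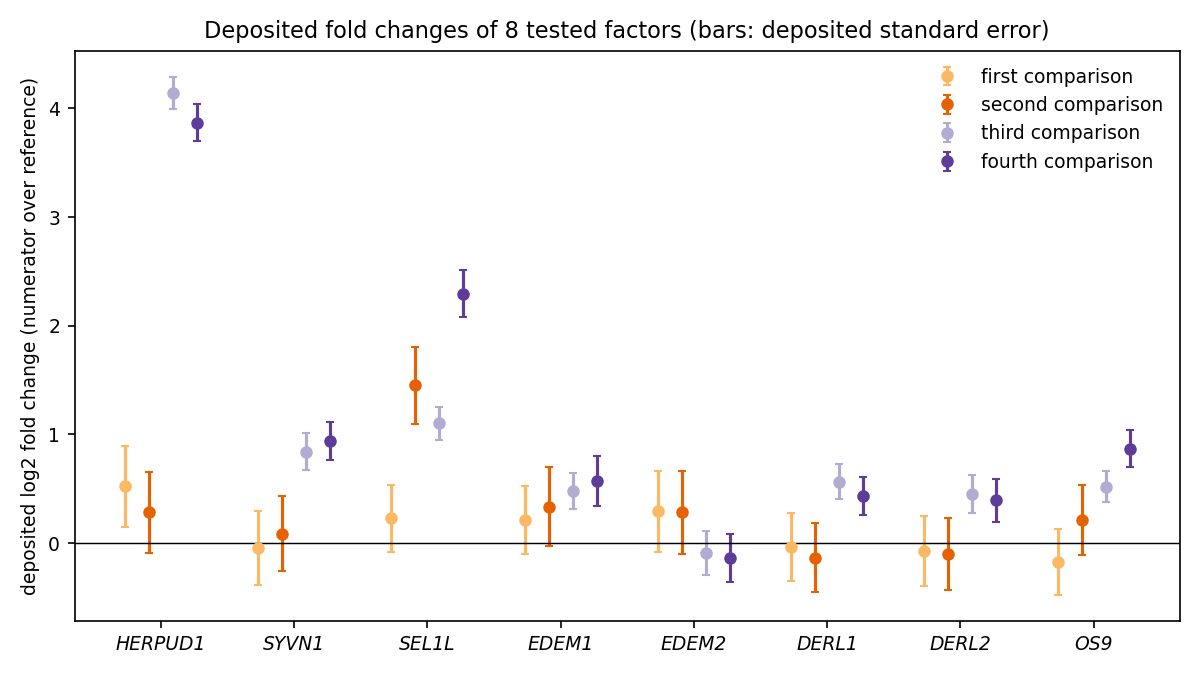
Log2 fold changes of 8 factors in the authors' deposited table, numerator over reference, with the deposited standard error as bars, for the 4 comparisons. HERPUD1 lies at 4.14 and 3.87 in the third and the fourth comparison, and SEL1L is the one factor above 1 in the second comparison, at 1.45.

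Counted together, 7 of the 8 tested factors rose in set B over set C and 6 of 8 over set D, and none fell, at a deposited adjusted p under 0.05. The rule called 30.9% of all 22550 tested genes in the third comparison and 34.7% of 22151 in the fourth, in both directions. Calls in the higher direction alone were 14.8% and 17.2% of the tested genes, and in the lower direction 16.1% and 17.5%. Calls were more frequent among tested genes of at least 2 CPM, to which all 8 factors belong. Of 13512 such genes, 2279 were called higher and 3607 lower in the third comparison. In the fourth these numbers were 2630 and 3760 of 13599. After centring on the median gene of at least 2 CPM, 18.1% of all tested genes were called higher and 11.4% lower over set C, against 20.2% higher and 13.5% lower over set D. The factors' median log2 fold change was 0.54 over set C and 0.72 over set D, beside 0.09 and 0.08 over all tested genes. Genes of at least 2 CPM had medians of -0.16 and -0.15, and relative to these the factors lie higher by that amount. The stricter deposited p under 0.01 called 5 of 8 factors in the third comparison (22.5% of genes) and 4 of 8 in the fourth (24.9%). The selection given in the labels, a log2 fold change over 1 in size with an unadjusted p under 0.05, takes HERPUD1 and SEL1L alone in the third (13.6% of listed genes) and in the fourth (16.9%), SEL1L alone in the second (3.37%) and none in the first (1.44%). Tested against a fold of 1.5, HERPUD1 and SEL1L passed in the third (9.65% of genes) and in the fourth (12.9%), and none passed in the second (0.302%). For the fourth, 4 of 8 passed when p was adjusted over every listed gene (22.1%) and 7 of 8 after centring on the median gene (33.7%). In the second comparison 1 of 8 was called, where 0.82% of all tested genes were. In the first comparison 0 of 8 were called, where 0.0516% of all genes were, and 0 of 8 had an unadjusted p under 0.05 either there or by limma. The deposited standard errors of the 8 factors were 0.30 to 0.37 in the first and 0.32 to 0.38 in the second comparison, against 0.14 to 0.20 in the third and 0.17 to 0.23 in the fourth.

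Without any fitted model, 7 of the 8 factors with enough reads (DERL3 left out) had both libraries of set B outside the range of set C, and 7 of 8 outside that of set D. Over 18579 genes the same held for 74.6% and 76.3%, so these counts are near the background. Ranges of set B and set A were apart for 7 of 8 factors, against 59.8% of all genes. Those of set A and set C were apart for 2 of 8 (31.7% of all genes), those of set A and set D for 3 of 8 (45.0%), and those of set D and set C for 4 of 8 (52.9%).

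The table holds no comparison of the 2 numerator sets or of the 2 reference sets, so both were made with limma on the recovered reads, a choice made after seeing the data. Set B exceeded set A for 6 of 8 factors at an adjusted p under 0.05, where 20.2% of all 18579 genes were called. These were HERPUD1 (3.71), SYVN1 (0.96 ± 0.22, adjusted p = 0.0138), SEL1L (0.93 ± 0.22, adjusted p = 0.0177), OS9 (0.75 ± 0.17, adjusted p = 0.0145), DERL1 (0.66 ± 0.17, adjusted p = 0.0268) and DERL2 (0.58 ± 0.18, adjusted p = 0.0449). EDEM1 at 0.32 ± 0.25 and EDEM2 at -0.30 ± 0.28 did not pass. The EDEM2 value depended on the pair in set A: it was -0.71 without A2 and 0.16 without A1. For set D against set C 0 of 8 factors passed by limma, where 0.248% of all genes did, and 1 of 8, SEL1L, had an unadjusted p under 0.05, as did 13.7% of all genes. Applied to the deposited comparisons, limma called 5 of 8 factors in the third (21.9% of genes), 4 of 8 in the fourth (29.8%) and 1 of 8 in the second (0.253%). In the first it called 0 of 18579 genes, of which 1262 had an unadjusted p under 0.05. With 1 library left out, the log2 fold change of SYVN1 in set B over set A was 1.00 without B1 and 0.96 without B2. Over all 8 such fits it ranged from 0.69 to 1.25. SEL1L ranged from 1.05 to 1.31 in set B over set C. In the fourth comparison HERPUD1 ranged from 3.87 to 4.03 and SEL1L from 2.07 to 2.74. Calls of single factors were gained and lost between these fits, and the share of all genes called in each is not given.

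**Figure D3:**
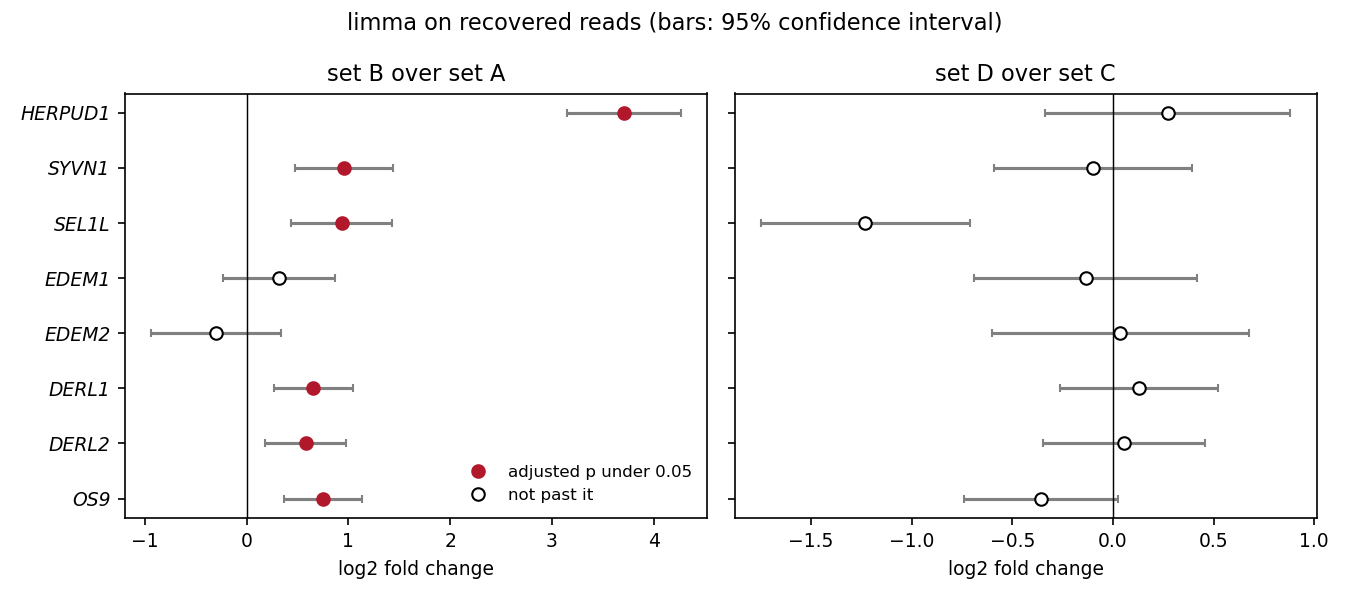
Log2 fold changes by limma on the recovered reads, set B over set A and set D over set C, for 8 factors, with 95% confidence intervals; filled points have an adjusted p under 0.05. Of the 8, 6 lie right of 0 with a filled point for set B over set A, and SEL1L lies at -1.23 with an interval below 0 but an open point for set D over set C.

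The other genes of the pathway were called in both directions. Of all tested genes, 14.8% were called higher and 16.1% lower in the third comparison, beside 17.2% higher and 17.5% lower in the fourth. Among 20 other genes of lumenal recognition and chaperoning, 11 rose and 2 fell in the third comparison (median 0.50), and 10 rose and 2 fell in the fourth (median 0.53). Centred on the median gene, 12 were higher and 2 lower over set C, and 13 higher and 2 lower over set D. DNAJB9, a co-chaperone known to be induced by ER stress, rose by 3.92 ± 0.18 over set C (adjusted p = 8.4e-100), as deposited. HSPA5, the main ER chaperone BiP, rose by 2.64 ± 0.17 over set C (adjusted p = 2.2e-53) and by 2.13 ± 0.16 over set D (adjusted p = 7.8e-38). DNAJB11, its co-chaperone, rose by 1.54 ± 0.17 over set C and 1.19 ± 0.18 over set D. FOXRED2, an ER flavoprotein, fell by 1.21 and 1.04, in the same order, and the mannosidase MAN1B1 fell by 0.59 and 0.93.

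Of 19 tested ubiquitin ligases and conjugating enzymes beside HRD1, 3 rose and 5 fell in the third comparison (median -0.10), and 5 rose and 7 fell in the fourth (median -0.31). After centring the third comparison turns to 6 higher and 3 lower, with a median of 0.06, and the fourth keeps 5 and 7. UBE2J1, the conjugating enzyme that works with HRD1, rose by 0.82 ± 0.17 over set C (adjusted p = 9.9e-06) and by 1.06 ± 0.19 over set D (adjusted p = 3.1e-07), again as deposited. The ligase RNF103 rose by 1.53 and 1.09. STUB1, a cytosolic chaperone-bound ligase, fell by 1.06 and 1.29, and the ER ligase TMEM129 fell by 0.95 and 1.21. Among 23 tested membrane adaptors 5 rose and 6 fell in the third, and 6 rose and 5 fell in the fourth. After centring, 6 were higher and 3 lower over set C, and 7 were higher and 4 lower over set D. SELENOK and SELENOS, selenoproteins of the ER membrane that bind p97 or the derlins, rose by 1.97 ± 0.19 and 1.76 ± 0.18 in the third and by 1.12 ± 0.22 and 1.16 ± 0.20 in the fourth. The rhomboid-like RHBDD2 rose by 1.16 and 1.12. SVIP, a small inhibitor of the pathway that binds p97, fell by 1.31 and 1.56, and TMUB1 fell by 0.90 and 1.18.

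Genes of extraction and cytosolic handling, which act after the client leaves the membrane, had more calls in the lower than in the higher direction. Of 26 tested, 1 rose and 9 fell in the third comparison (median -0.24), and 4 rose and 14 fell in the fourth (median -0.43), where 16.1% and 17.5% of all tested genes were called lower. Among tested genes of at least 2 CPM, lower calls also outnumbered higher ones, at 3607 against 2279 of 13512 in the third. In the fourth they stood at 3760 against 2630 of 13599. After centring, 1 was higher and 7 lower in the third (median -0.08), and 4 and 11 in the fourth (median -0.29). In the authors' deposited table the deubiquitinase USP13 fell by 1.32 ± 0.18 over set C (adjusted p = 1.3e-11) and by 1.35 ± 0.21 over set D. The p97 cofactor FAF1 fell by 1.20 and 1.67. YOD1, a p97-associated deubiquitinase, rose by 1.13 ± 0.21 and 1.33 ± 0.24 in the same table. Among 18 tested sensors and factors of the unfolded protein response 8 rose and 3 fell in the third, and of 16 tested 9 rose and 5 fell in the fourth. The sensor kinase ERN1 rose by 3.26 and 4.01, its target XBP1 by 2.43 and 2.09, the stress factor DDIT3 by 3.67 and 3.49, and TRIB3 by 2.62 and 2.57. ATF6B fell by 0.94 and 1.22, and CREB3L2 by 1.02 and 0.76. In the first and the second comparison 0 of the 103 tested genes of these 5 lists were called by the deposited adjusted p. In the first, 1 had an unadjusted p under 0.05 as deposited (2.79% of all tested genes) and 4 by limma (6.79% of all genes). In the second, 9 did as deposited (9.25%) and 24 by limma (18.9%). Limma called 0 of the 103 in each by its adjusted p.

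**Figure D4:**
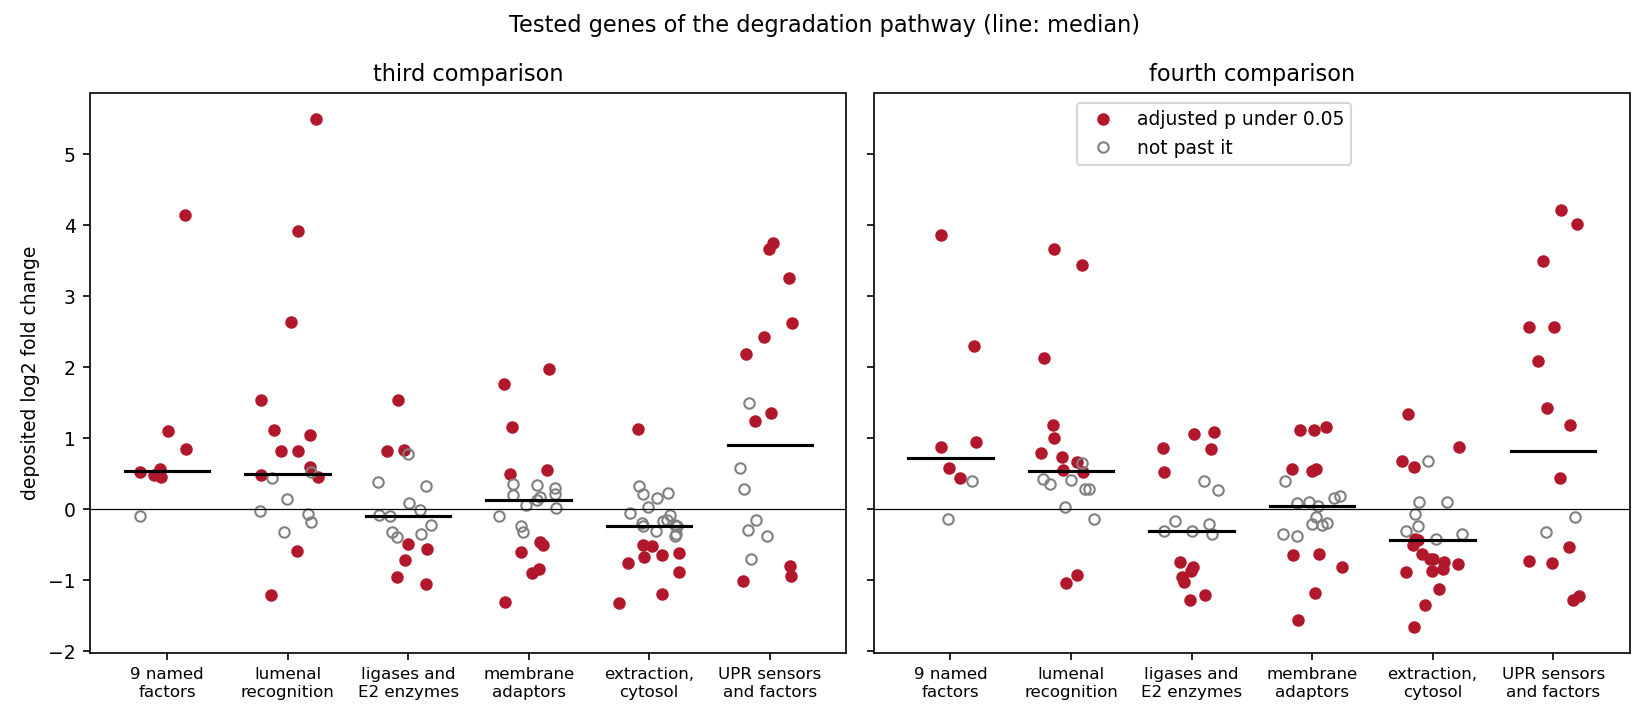
Deposited log2 fold changes of the tested genes among the 9 factors and 5 wider lists in the third and the fourth comparison, with a line at the median; filled points have an adjusted p under 0.05. The 8 tested factors have medians of 0.54 and 0.72 with no filled point below 0, and the extraction and cytosolic list has medians of -0.24 and -0.43.

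Ranked by distance between the 4 deposited log2 fold changes, over 9552 genes of at least 10 CPM in every comparison, DNAJB9 lay nearest to HERPUD1 (0.34 log2 units). HMOX1 (0.93), ERN1 (1.20), HDAC9 (1.46) and CXCL8 (1.51) followed. In the authors' deposited table DNAJB9 had 0.62, 0.39, 3.92 and 3.66 from the first to the fourth comparison, beside 0.52, 0.28, 4.14 and 3.87 for HERPUD1. Among the 5 nearest to SYVN1 were SLC7A6OS (0.069), RAB8B (0.070), NPIPB5 (0.105) and the ER ligase RNF185 (0.130), all with small fold changes like those of SYVN1 itself. These distances describe 4 comparisons that share libraries, and they are not a test.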

How the data were processed

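The authors deposited 1 table with 4 unnamed comparisons of 7 columns each. Per the file headers, these hold an identifier, a base mean (a normalised signal averaged over libraries), a log2 fold change, its standard error and a test statistic (both treated as a score), a p-value and an adjusted p-value. For the aligner, the counter, the build and the fitting program, nothing is stated; each is not given in the sources used here. None of its 24 columns of values belongs to a named sample (0 of 24), so the deposited statistics were used as they stand in place of fits of labelled groups. Rows without an adjusted p were kept as not tested.

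Each base mean was written as a sum of whole reads times a fixed step per library, found from rows with few reads. The 4 base means of a gene were then solved together for the reads of 8 libraries by lattice reduction (Python 3.11.15, numpy 2.4.6). Of 26755 genes listed in all comparisons, 26748 were solved. They hold 95.7% of the summed base mean of the third comparison, so library totals leave out the rest. When the base mean of the third comparison was moved by 1e-06 in absolute terms, 0 of 1000 genes were solved. On made-up reads with known answers, 2499 of 2499 genes came out right. Library pairs that match across comparisons were the same to an SD of 0.0029 log2 or less, and the ratios of recovered means differed from the deposited log2 fold changes by a median of 0.0013 or less. The search for whole reads was centred on those fold changes, so this last agreement is not a fully independent check. These reads were tested with limma 3.58.1 (voom, R 4.3.3) over 18579 genes with at least 10 reads in at least 2 libraries, with Benjamini-Hochberg adjustment, 4 residual degrees of freedom and a check on simulated data.

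Calls use a deposited adjusted p under 0.05. Alternatives were the selection in the labels (log2 fold change over 1 in size with an unadjusted p under 0.05), an adjusted p under 0.01, adjustment over genes of at least 2 CPM or over all listed genes, centring on the median gene, a test against a fold of 1.5, limma, and each library left out of limma. CPM is the base mean, or the recovered reads, scaled to a total of 1000000. The members and gene lists were chosen with earlier results of these data known. Besides the 9 factors, genes named from each of 5 wider lists are those with the 4 smallest p in the third comparison and the 2 lowest fold changes called there, plus the 5 genes nearest in pattern to HERPUD1 and to SYVN1; some genes this rule names are not reported here. Cell type markers named beside the results were picked after their values were seen, and are part of 3 lists of 12.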

Additional observations from a re-analysis of the deposited data

How the results depend on the processing

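Factors called in the third comparison numbered 7 of 8 and in the fourth 6 of 8. Under the selection in the labels 2 were called in each, and against a fold of 1.5 also 2 in each, while the second comparison dropped to 0 against a fold of 1.5. The 2 were HERPUD1 and SEL1L. With the threshold at 0.01, EDEM1 and DERL2 lost their call in the third and EDEM1 and DERL1 in the fourth. Adjusted over every listed gene, EDEM1 (0.0558) and DERL1 (0.0628) missed it in the fourth. Centring on the median gene turned the sign of 3 fold changes that were near 0 and not called: DERL1 in the first comparison to 0.0050, and EDEM2 to 0.066 in the third and 0.0098 in the fourth. It also brought DERL2 in the fourth past the threshold, at 0.54. The cause of these changes was not tested. Set means derived from a base mean and its fold change, which the results do not use, moved by more than the spread between libraries in 10 cases, when 3 reference libraries were assumed or the other comparison of the set was used.

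Leaving out each library in turn was a choice made after seeing the data, and each such fit leaves 1 library in a pair. Calls of single factors were gained and lost between these fits. The share of all genes called in each fit is not given here, so these calls are not read as a result about the factors. For set B over set C the log2 fold change ranged from 4.13 to 4.30 for HERPUD1 and from 0.76 to 1.08 for SYVN1. With all 8 libraries, limma called 0, 1, 5 and 4 of 8 factors in the first to the fourth comparison. Beside these were 0.0%, 0.253%, 21.9% and 29.8% of all genes. For set B over set A it called 6 (20.2% of genes), and for set D over set C 0 (0.248%). HERPUD1 and EDEM2 were called in the first comparison without library A2, at 0.90 and 0.68, and in the second at 0.63 and 0.65. EDEM2 was then also called lower in set B than in set A. SEL1L passed in set D against set C without A1 or A2. HERPUD1 was called in the third, the fourth and set B over set A with every library left out in turn. A pair reduced to 1 library is assumed to vary like the others.

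No paired analysis was possible because no column is tied to a labelled sample and the libraries carry no replicate numbers. For the same reason the planned fits without replicate 1, 2 or 3 were not run on labelled samples. With 2 libraries a side, of the 7 factors called in the third comparison HERPUD1 kept its call under every alternative run. These include the fits with 1 library left out, for which the share of all genes called is not given. DERL3 is limited by its reads.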
